A study of Mus musculus with 9 samples.

Results

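The biliary epithelial genes are 9 mouse genes, Krt19, Krt7, Epcam, Sox9, Tm4sf4, Cldn7, Pkhd1, Ehf and Clu, of the 45777 genes in the tables. They were chosen by their TPM (transcript abundance scaled for gene length and library size) in these same libraries, compared between the 3 treatment groups. Their group differences are therefore given as a description, without a p-value. All 9 libraries came from CD11b+ cells of mouse liver collected 48 hours after acetaminophen (APAP), an overdose of which causes acute liver failure. The PBS group (title APAP), the HEK-EV group (APAP+HEKSIRP-EV) and the MSC-EV group (APAP+SIRP-EV) held 3 libraries each. All 3 groups had received APAP by intraperitoneal injection, and the vesicle groups received SIRP-EVs, extracellular vesicles from HEK cells or from MSC, intravenously 8 hours later. HEK is a human embryonic kidney cell line, and MSC is the labels' own abbreviation. Strain, sex and age are not given in the sources used here, and neither an uninjured liver nor vesicles without SIRP were among the groups analysed here. The labels do not say whether the replicates of a group came from separate animals, so p-values measure only the spread between these libraries.

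Bile ducts are lined by cholangiocytes, epithelial cells that carry keratin filaments, tight junctions and a primary cilium and that modify bile on its way out of the liver. After liver injury they and related progenitor cells can multiply in what is called a ductular reaction. KRT19 and KRT7 are their classical keratins, EPCAM and CLDN7 are adhesion and junction proteins that associate with each other, SOX9 is the transcription factor that marks ducts, and PKHD1 encodes fibrocystin of the cilium. Cholangiocytes do not carry CD11b, the surface protein used to isolate these cells. The duct cells of the pancreas share several of these genes, and Clu and Tm4sf4 are also used by hepatocytes.

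Promoter sequences are shown for 3 of the genes, because the genes were high in the same libraries and differ in the short motifs before their starts. The sequences are the 250 bases before the RefSeq transcript start (build GRCm38.p6), 5′ to 3′ on the gene's strand. Capitals mark GC boxes (GGGCGG) in Krt7 and Epcam, an ETS motif (CAGGAA) in Krt7 and a TEAD motif (GGAATG) in Cldn7, whose first listed start is shown. Each motif was searched on both strands, so its reverse complement is in capitals too, and matches of different motifs could overlap.
Krt7, chr15:101412153-101412402, plus strand: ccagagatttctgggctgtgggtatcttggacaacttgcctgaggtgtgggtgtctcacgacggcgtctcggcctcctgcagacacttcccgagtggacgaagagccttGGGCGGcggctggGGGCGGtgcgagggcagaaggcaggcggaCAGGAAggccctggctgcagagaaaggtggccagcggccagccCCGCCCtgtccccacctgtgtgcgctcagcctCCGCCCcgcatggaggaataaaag
Epcam, chr17:87635729-87635978, plus strand: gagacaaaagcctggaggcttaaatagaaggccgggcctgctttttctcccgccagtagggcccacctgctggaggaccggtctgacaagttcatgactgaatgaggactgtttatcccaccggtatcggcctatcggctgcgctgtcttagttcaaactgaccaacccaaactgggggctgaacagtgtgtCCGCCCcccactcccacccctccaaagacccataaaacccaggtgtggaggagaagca
Cldn7, chr11:69964529-69964778, plus strand: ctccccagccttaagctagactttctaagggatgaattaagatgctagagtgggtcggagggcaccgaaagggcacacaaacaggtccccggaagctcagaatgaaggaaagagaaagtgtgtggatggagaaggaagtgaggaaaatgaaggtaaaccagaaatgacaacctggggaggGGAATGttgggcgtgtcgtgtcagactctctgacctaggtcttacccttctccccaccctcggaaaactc

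The table held 6 promoters of 5 of the 9 genes, with 2 for Cldn7 and none for Krt19, Sox9, Ehf and Clu. A GC box, the motif of SP and KLF factors, was in 3 of the 6 and in 32.7% of all 32851 promoters of this length. Krt7 had 4 GC boxes, Epcam had 1, and the promoter of the other Cldn7 start had 1. The ETS motif, for the family that includes EHF, was in 1 of the 6 (Krt7) and in 25.7% of all. The TEAD motif was in 1 of the 6 (Cldn7) and in 12.6% of all. Neither a SOX core (ACAATG) nor a TATA box (TATAAA) was found in the 6, against 10.7% and 12.4% of all promoters. These matches are letters in a window and are not evidence of binding.

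Myeloid transcripts were abundant in every library. The summed level of 9 myeloid genes (Itgam, Ptprc, Lyz2, Csf1r, Adgre1, Cd68, Fcgr3, Tyrobp and S100a8) was 25190 to 27700 TPM in the PBS group, 23610 to 26130 in the HEK-EV group and 21710 to 27410 in the MSC-EV group. Lyz2 supplied most of that sum. Of the 9 myeloid genes, Itgam, Ptprc and Tyrobp were lower in every MSC-EV library than in every PBS library and Cd68 was higher, where 14.9% and 11.2% of all genes tested were. Itgam, which encodes CD11b itself, was at 289, 324 and 377 TPM in PBS, 339, 342 and 434 in HEK-EV and 196, 235 and 255 in MSC-EV, a log2 difference of -0.53 between MSC-EV and PBS that did not pass (SE 0.134, limma adjusted p = 0.0553). Between MSC-EV and HEK-EV the Itgam difference was -0.70 and passed (SE 0.134, limma adjusted p = 0.0257). Ptprc, the common leukocyte antigen CD45, fell in MSC-EV by 0.46 against PBS (SE 0.0873, limma adjusted p = 0.0271). Its difference from HEK-EV was -0.53 (limma adjusted p = 0.0207). The part of this shift in the biliary differences was not tested. The 9 biliary genes together made 53.5 to 63.2, 62.3 to 83.7 and 138.7 to 185.7 TPM, and most of that was Clu. No gene was at 0 in any library. The files give mean read coverage per base and no read counts, so no counting interval could be attached to a value. Coverage was thin for the weakest genes, from 0.439 to 2.83 reads per base over Pkhd1 and from 0.777 to 4.03 over Sox9, and reached 199.9 over Clu. The ratio of coverage to FPKM, which follows the number of fragments sequenced, was 5.28 to 6.32 in the PBS group, 6.25 to 6.47 in the HEK-EV group and 6.58 to 6.84 in the MSC-EV group, so the deepest libraries were those of the MSC-EV group. The part of depth in the differences below was not tested.

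Transcripts of pancreatic acinar cells set 4 libraries apart before any comparison. The sum of 22 acinar genes was 13.3 to 15.0 TPM in the 3 PBS libraries, 15.4 in HEK-EV replicate 3 and 13.8 in MSC-EV replicate 2. In these 5 libraries 18 or 19 of the 22 genes were listed at 0, and Cela1 supplied most of the sum. The other 4 libraries held 44.2 TPM (HEK-EV replicate 1), 1309 (HEK-EV replicate 2), 171.5 (MSC-EV replicate 1) and 3708 (MSC-EV replicate 3). The differences of the 9 genes are therefore also given without these 4 libraries, which leaves 3 PBS libraries, 1 HEK-EV library and 1 MSC-EV library. Of 8 pancreatic islet genes 7 were at 0 in every library.

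All 9 biliary genes were higher in the MSC-EV group than in the other groups, with every MSC-EV library above every PBS library and every HEK-EV library for each gene. Among all 13820 genes tested, 11.2% had MSC-EV values wholly above PBS and 12.6% wholly above HEK-EV. Since the list was made on this comparison, nothing is read from the 9 of 9. In bulk RNA, more cells of a type and more RNA per cell of that type cannot be told apart. Against PBS the median difference of the 9 genes was 0.93 on the log2(TPM + 1) scale, and the median of all genes tested was 0.01. Against HEK-EV the medians were 0.76 and -0.02. All 9 passed the filter on low values (at least 1 TPM in at least 3 libraries), but Sox9, Cldn7 and Pkhd1 passed only through the 3 MSC-EV libraries, so in these genes the filter itself asks for a difference.

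**Figure D1:**
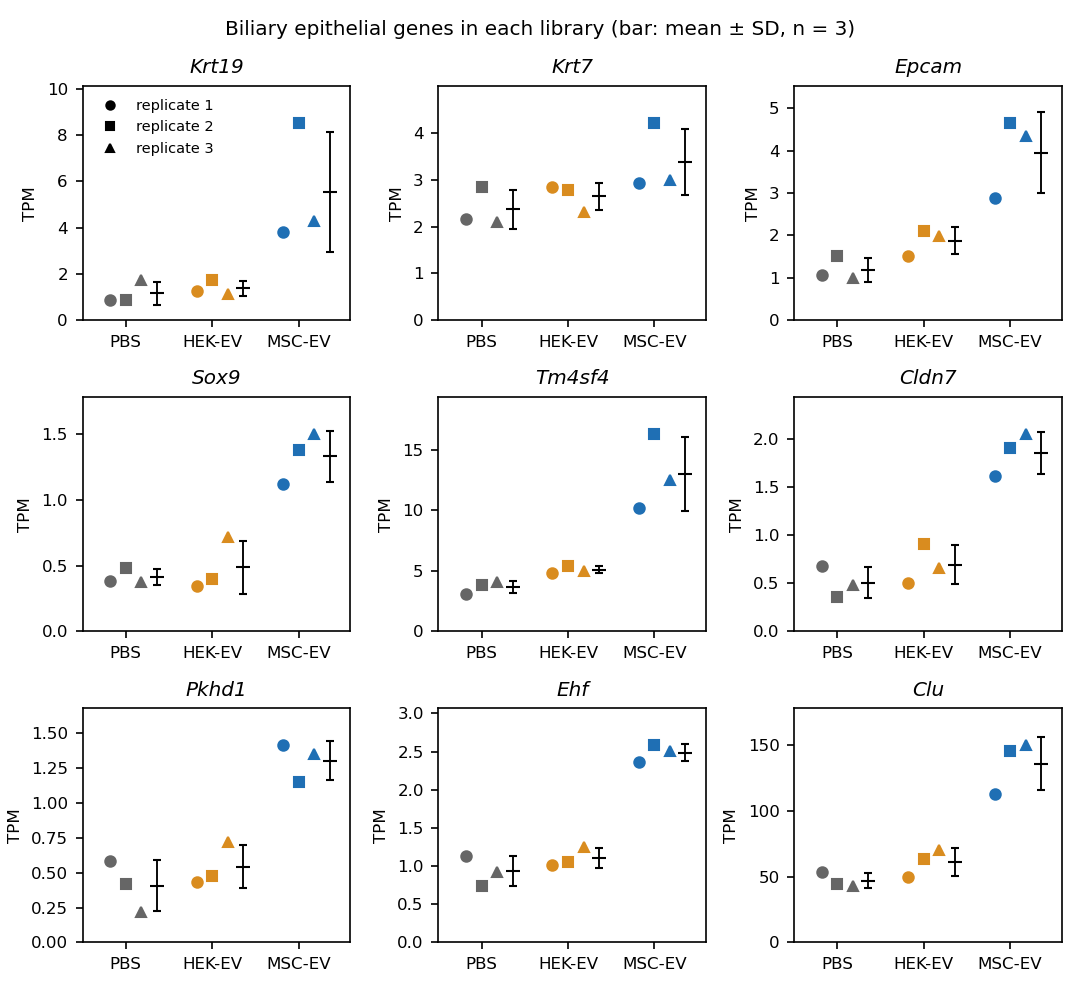
Level of each of the 9 biliary genes in TPM (vertical axes, linear from 0) in the 3 libraries of each group, with the mean and SD beside them. In every panel the 3 MSC-EV libraries lie above the other 6, and in the Krt19 panel MSC-EV replicate 2 stands at 8.50 TPM above the other MSC-EV libraries.

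The 2 keratins differed in size of difference. Krt19 encodes the small type I keratin of simple ducts (gene ID 16669, mm10 chromosome 11, 100140810 to 100145926, minus strand). Its level was 0.891, 0.884 and 1.74 TPM in PBS replicates 1 to 3, 1.29, 1.75 and 1.12 in the HEK-EV replicates and 3.82, 8.50 and 4.29 in the MSC-EV replicates. The PBS and HEK-EV values overlap, and the MSC-EV libraries are all higher, with replicate 2 at 2.1 times the mean of the other two. The group means were 1.17 ± 0.494, 1.39 ± 0.326 and 5.53 ± 2.58 TPM (SD, n = 3). The MSC-EV difference was 1.54 on the log2 scale from PBS (standard error, SE, 0.262) and 1.39 from HEK-EV (SE 0.262).

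Krt7 encodes a type II keratin of ducts and other simple epithelia (gene ID 110310, chromosome 15, 101412403 to 101427806, plus strand). It stood at 2.17, 2.84 and 2.09 TPM in the PBS libraries, 2.85, 2.78 and 2.30 in the HEK-EV libraries and 2.94, 4.2 and 2.99 in the MSC-EV libraries. The groups barely part: the lowest MSC-EV value is 2.94 TPM and the highest HEK-EV value 2.85. The log2 difference was 0.37 from PBS and 0.26 from HEK-EV (SE 0.148 each), the smallest of the 9 genes in both comparisons. It rested on MSC-EV replicate 2, without which it was 0.24 from PBS and 0.13 from HEK-EV.

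The order of the 2 keratins changed between the groups. TPM is per transcript length, so the levels can be compared between genes. The ratio of Krt19 to Krt7 was 0.311 to 0.834 in the PBS libraries, 0.452 to 0.630 in the HEK-EV libraries and 1.30 to 2.03 in the MSC-EV libraries. Keratin filaments pair type I with type II chains, and Krt8 (type II) and Krt18 (type I) are the partners found in all simple epithelia. Krt18 plus Krt19 summed to 4.27 to 6.04 TPM in PBS and 10.45 to 18.4 in MSC-EV, and Krt7 plus Krt8 to 6.06 to 9.53 and 11.0 to 16.5. The ratio of the type I to the type II sum was 0.634 to 0.866 in PBS, 0.616 to 0.760 in HEK-EV and 0.950 to 1.12 in MSC-EV. Each sum holds a gene of the list, so this ratio is not separate from that of Krt19 to Krt7. Krt18 alone was at 3.38, 4.36 and 4.30 TPM in PBS and 6.64, 9.93 and 9.90 in MSC-EV. Krt8 alone was at 4.23, 3.22 and 7.44 TPM in PBS and 8.07, 12.3 and 10.8 in MSC-EV. Krt18 was above Krt8 only in PBS replicate 2.

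The adhesion and junction genes followed. Epcam encodes an epithelial cell adhesion protein (gene ID 17075, chromosome 17, 87635979 to 87651127, plus strand). Its values were 1.08, 1.51 and 0.989 TPM in PBS, 1.52, 2.11 and 2.0 in HEK-EV and 2.87, 4.64 and 4.35 in MSC-EV. The 3 groups do not overlap, although the highest PBS library (1.51) and the lowest HEK-EV library (1.52) nearly meet. The log2 difference from PBS was 1.17 (SE 0.173) for MSC-EV and 0.40 (SE 0.173) for HEK-EV.

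Cldn7 encodes claudin 7, a tight junction protein of epithelia (gene ID 53624, chromosome 11, 69964779 to 69967886, plus strand). It was at 0.682, 0.355 and 0.486 TPM in PBS, 0.507, 0.910 and 0.659 in HEK-EV and 1.62, 1.91 and 2.05 in MSC-EV. PBS and HEK-EV overlap, and the MSC-EV libraries are the highest 3. The log2 difference of MSC-EV was 0.93 from PBS and 0.76 from HEK-EV (SE 0.148 each).

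Tm4sf4, a membrane protein with 4 membrane-spanning segments (gene ID 229302, chromosome 3, 57425410 to 57441677, plus strand), was the second most abundant of the list. Its values were 3.08, 3.82 and 4.05 TPM in PBS, 4.86, 5.41 and 5.0 in HEK-EV and 10.2, 16.3 and 12.5 in MSC-EV. The 3 groups are separate, in the order PBS, HEK-EV, MSC-EV. MSC-EV differed from PBS by 1.57 (SE 0.155), and HEK-EV differed from PBS by 0.39. On the log2(TPM + 1) scale that MSC-EV difference was the largest of the 9, ahead of Krt19 at 1.54, but with a pseudocount of 0.1 Krt19 (2.12) was ahead of Tm4sf4 (1.79).

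Pkhd1, the cilium gene whose loss causes cystic bile ducts and kidneys (gene ID 241035, chromosome 1, 20057779 to 20618082, minus strand), was at 0.585, 0.420 and 0.217 TPM in PBS. It was at 0.434, 0.474 and 0.723 in HEK-EV and at 1.41, 1.15 and 1.35 in MSC-EV. The MSC-EV libraries are again the highest 3, and PBS and HEK-EV overlap. Here replicate 2 is the lowest of the MSC-EV libraries, the reverse of its place for Krt19, Krt7, Epcam, Tm4sf4 and Ehf, where it is the highest of all 9 libraries. The log2 difference of MSC-EV was 0.72 from PBS and 0.58 from HEK-EV (SE 0.151 each). Pkhd1 spans 3 other annotated genes, none above 0.424 TPM in any library. The other 8 genes overlap none.

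Of the transcription factors, Sox9, which specifies ductal cells (gene ID 20682, chromosome 11, 112782210 to 112787757, plus strand), was the weakest gene of the list by mean level. It was at 0.380, 0.480 and 0.375 TPM in PBS, 0.345, 0.402 and 0.720 in HEK-EV and 1.12, 1.38 and 1.5 in MSC-EV. HEK-EV replicate 3 is the only library of the other groups above 0.5 TPM. MSC-EV differed from PBS by 0.72 on the log2 scale and from HEK-EV by 0.65 (SE 0.146 each). Ehf encodes an ETS-family factor of epithelia (gene ID 13661, chromosome 2, 103263431 to 103303275, minus strand). Its values were 1.13, 0.739 and 0.929 TPM in PBS, 1.01, 1.06 and 1.25 in HEK-EV and 2.36, 2.58 and 2.51 in MSC-EV. The MSC-EV libraries lie close together (2.48 ± 0.110, SD, n = 3), the tightest group of MSC-EV values relative to its mean, and well above the rest. The log2 differences were 0.85 from PBS and 0.73 from HEK-EV (SE 0.124 each).

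Clu encodes clusterin, a secreted chaperone raised in injured epithelia and made by many cell types (gene ID 12759, chromosome 14, 65968483 to 65981548, plus strand). It was far more abundant than the other 8 genes, at 53.2, 44.5 and 42.6 TPM in PBS, 49.4, 63.5 and 69.9 in HEK-EV and 112, 145 and 149 in MSC-EV. HEK-EV replicate 1 falls within the PBS range, the other HEK-EV libraries lie above it, and MSC-EV is higher still. The log2 difference of MSC-EV was 1.51 from PBS and 1.14 from HEK-EV (SE 0.149 each). In plain TPM the MSC-EV mean was 2.90 times the PBS mean for Clu. The other genes ranged from 1.43 times for Krt7 to 4.72 times for Krt19.

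**Figure D2:**
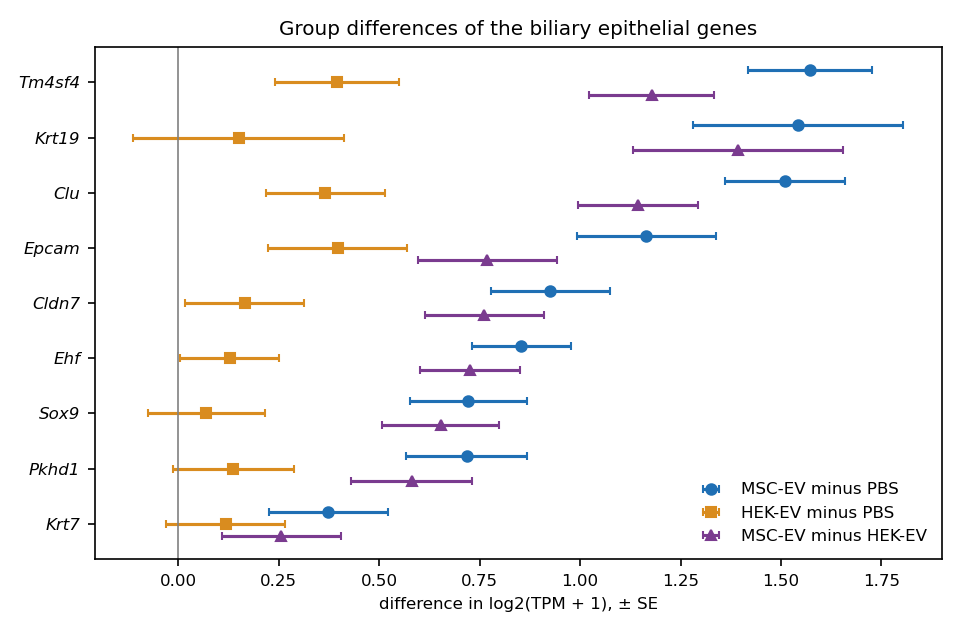
Differences in log2(TPM + 1) between group means for the 9 genes (horizontal axis), with the SE from the shared fit, for MSC-EV minus PBS, HEK-EV minus PBS and MSC-EV minus HEK-EV. The MSC-EV differences from PBS run from 0.37 for Krt7 to 1.57 for Tm4sf4, and those of HEK-EV from PBS from 0.07 to 0.40.

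HEK-EV libraries sat close to PBS. All 9 mean differences were above 0, from 0.07 for Sox9 to 0.40 for Epcam, with a median of 0.15, while 61.0% of all genes tested were also above 0 and their median was 0.03. Only Epcam and Tm4sf4 had all HEK-EV values above all PBS values, against 5.51% of all genes. At an adjusted p under 0.05, 0 of 13820 genes passed in this comparison (limma), with 495 at an unadjusted p under 0.05. The 2 comparisons with PBS share the same control libraries.

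Without the 4 libraries with acinar transcripts the MSC-EV level rests on replicate 2, whose acinar sum was that of the PBS libraries. The log2 difference from PBS was then 2.15 for Krt19, 1.90 for Tm4sf4, 1.62 for Clu, 1.37 for Epcam, 0.95 for Cldn7, 0.89 for Ehf, 0.75 for Sox9, 0.63 for Krt7 and 0.62 for Pkhd1. For 8 genes that is as large as or larger than with all 9 libraries, and for Pkhd1 it is smaller. Against HEK-EV, where 1 library then stands against 1, the differences were 2.16 for Krt19, 1.53 for Tm4sf4, 1.04 for Clu, 0.91 for Epcam, 0.81 for Cldn7, 0.67 for Ehf, 0.65 for Krt7, 0.47 for Sox9 and 0.32 for Pkhd1. The values for Pkhd1, Sox9, Ehf and Clu are smaller than with all libraries, that of Pkhd1 by more than 1.5 times (0.58 with all). HEK-EV replicate 3 differed from PBS by -0.01 for Krt19 and -0.02 for Krt7, the opposite sign to all libraries, and by 0.14 to 0.58 for the other 7 genes. These values rest on 1 MSC-EV library and on the values that chose the genes. Among the 4 libraries with acinar transcripts, the mean log2 difference of MSC-EV replicates 1 and 3 from HEK-EV replicates 1 and 2 ran from 0.06 for Krt7 to 1.20 for Clu.

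Markers of other cells of the liver moved with the same groups. Hepatocyte transcripts, summed over 18 genes, were at 300.0 to 377.7 TPM in PBS, 228.6 to 393.6 in HEK-EV and 478.8 to 662.0 in MSC-EV. Of the 18, 13 had all MSC-EV values above all PBS values, as had 11.2% of all genes tested. Hnf4a and Tat, among the 13, were under the filter, where that share was 8.29%. None of the 18 was at 0 in any library, and 13 were highest in MSC-EV replicate 2. That library was also the highest for 5 of the 9 biliary genes, while Sox9, Cldn7 and Clu were highest in MSC-EV replicate 3 and Pkhd1 in replicate 1. On means the hepatocyte sum was 328.0 TPM in PBS, 301.3 in HEK-EV and 558.7 in MSC-EV. The sum of the 8 biliary genes other than Clu was 10.6, 13.8 and 32.8 TPM in the same order. Sinusoidal endothelial markers went the other way, with a sum over 8 genes of 260.3 to 320.4 TPM in PBS, 163.6 to 368.3 in HEK-EV and 105.6 to 202.3 in MSC-EV, and 7 of the 8 genes had all MSC-EV values below all PBS values, as had 14.9% of all genes tested. The part of hepatocyte and endothelial transcripts in the biliary differences was not tested.

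Mesothelial cells also express Krt7, Krt8, Krt18 and Krt19. The sum of 8 mesothelial markers was 0.332 to 2.08 TPM in PBS and 0.994 to 1.67 in MSC-EV, with Bnc1 at 0 throughout and Msln at 0.348 TPM or less, and none of the 8 passed the filter. Their part in the biliary differences was not tested. Intestinal markers summed to 4.39 to 5.63 and 4.80 to 6.11 TPM, with Cdx1, Cdx2, Reg3g and Tff3 at 0 in every library, and 2 of the 8 (Vil1, at 0.189 TPM or less, and Olfm4) had all MSC-EV values above all PBS values, against 11.2% of genes tested and 8.29% of those under the filter. Olfm4 was higher still in HEK-EV, at 1.75 to 2.03 TPM against 1.03 to 1.53 in MSC-EV. Stellate and fibroblast markers, summed over 11 genes, ran from 13.6 to 23.9 TPM in PBS, 15.2 to 21.7 in HEK-EV and 17.8 to 36.8 in MSC-EV. Of the 11, 1 (Des, under the filter) had all MSC-EV values above PBS, against 11.2% of genes tested and 8.29% of those under the filter.

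**Figure D3:**
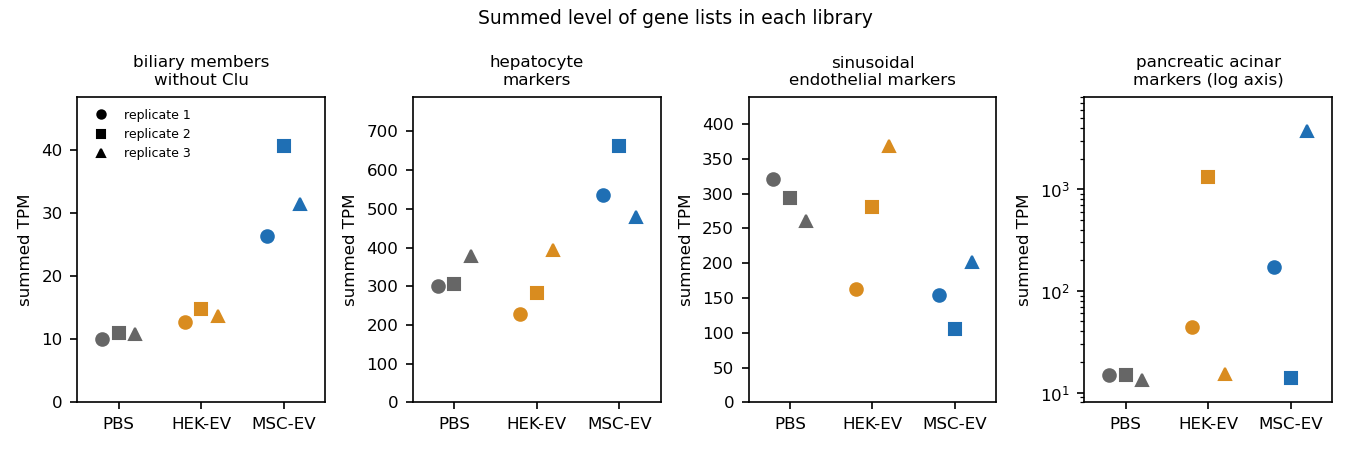
Summed TPM per library (vertical axes) of the 8 biliary genes other than Clu, of hepatocyte markers, of sinusoidal endothelial markers and, on a log axis, of pancreatic acinar markers. The biliary and hepatocyte sums are highest in the 3 MSC-EV libraries, and MSC-EV replicate 2 has the highest of both with an acinar sum of 13.8 TPM, inside the PBS range.

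A further 62 biliary genes were not on the list, and the 39 of them that passed the filter were tested in the same fit, adjusted over all 13820 genes. The 62 were picked as known duct genes at a time when a biliary pattern in these data was already known. Of these 39, 20 rose and 1 fell in MSC-EV against PBS (limma, adjusted p under 0.05), where 1.86% of all genes rose and 3.25% fell. Against HEK-EV 17 rose and 1 fell, where 1.51% and 4.40% of all genes did. In HEK-EV against PBS 0 of the 39 passed, with 3 at an unadjusted p under 0.05. The median log2 difference of the 39 was 0.68 from PBS and 0.56 from HEK-EV. As many as 10 of the 39 would not have passed the filter on the PBS and HEK-EV libraries alone, so the filter itself asks for a difference in them, and all 10 are among the 20. Among the other 29, 10 rose and 1 fell against PBS, and 8 rose and 1 fell against HEK-EV. The middle gene of these 29 differed by 0.37 from PBS (Ccn1) and by 0.36 from HEK-EV (Dmbt1), less than the medians of the 39. These counts depended on single libraries: against PBS 0 of the 39 passed without PBS replicate 2 (24 at an unadjusted p under 0.05), 1 without PBS replicate 3, 13 without HEK-EV replicate 2 and 8, 6 and 12 without MSC-EV replicates 1, 2 and 3. Without the 4 libraries with acinar transcripts 0 passed, with 23 at an unadjusted p under 0.05, and the 21 genes called with all libraries kept their direction. In the comparison with HEK-EV, 0 passed when replicate 1 or 2 of either vesicle group or the 4 acinar libraries were left out (15 to 28 at an unadjusted p under 0.05), 4 when HEK-EV replicate 3 was and 8 when MSC-EV replicate 3 was.

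Keratin, junction and epithelial surface genes made the largest group. Of the 15 tested, 4 (Krt23, Cgn, Dsp and Lad1) passed the filter only with the MSC-EV libraries. Of the other 11, 6 rose against PBS and 4 against HEK-EV, where 1.86% and 1.51% of all genes tested rose. Cdh1, which encodes E-cadherin, rose from 2.90, 2.82 and 2.22 TPM in PBS to 6.23, 7.66 and 7.18 in MSC-EV (log2 difference 1.14, SE 0.127, adjusted p = 0.00973 in limma). Its HEK-EV libraries lay between, at 3.64, 3.06 and 4.02 TPM. Spint2, an inhibitor of membrane serine proteases, rose by 0.66 (limma adjusted p = 0.0119) and Krt18 by 0.96 (0.0231). Against HEK-EV Cdh1 rose by 0.81, Spint2 by 0.45 and Cldn3, a claudin, by 1.05. In the text the 4 genes selected by the filter are given by level only. Dsp was at 0.321 to 0.552 TPM in PBS, 0.318 to 0.833 in HEK-EV and 1.10 to 1.73 in MSC-EV. The keratin Krt23 was at 0.295 to 0.632 TPM in PBS, 0.520 to 0.824 in HEK-EV and 1.88 to 2.5 in MSC-EV. The junction protein cingulin (Cgn) was at 0.269 to 0.477, 0.610 to 0.638 and 1.24 to 2.07 TPM, and Lad1, an anchoring filament protein, at 0.407 to 0.784, 0.372 to 0.582 and 1.18 to 1.45 TPM. Krt8 missed the threshold against PBS at 0.98 (SE 0.243, limma adjusted p = 0.0525). Cd24a, the most abundant gene of the group that did not pass, was at 81.9, 87.1 and 131 TPM in PBS and 92.3, 102 and 97.9 in MSC-EV. Neutrophils and B cells also express it.

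Genes of bile modification and the primary cilium held 11 tested genes, of which 2 (Dcdc2a and Slc5a1) passed the filter only with the MSC-EV libraries. Of the other 9, 4 rose against PBS and 4 against HEK-EV, where 1.86% and 1.51% of all genes tested rose. Anxa13, an epithelial annexin, rose from 1.45, 1.68 and 1.47 TPM to 4.38, 5.47 and 4.98 (1.23, SE 0.138, limma adjusted p = 0.00973). Its HEK-EV values of 1.35, 1.80 and 2.20 overlap those of PBS. Bicc1, an RNA-binding protein of the cystic kidney and duct programme, rose by 1.29 (limma adjusted p = 0.00979) and Atp1b1, the beta subunit of the sodium pump, by 1.51 (0.0109). Atp1b1 overlaps the antisense gene Nme7, which reached 10.6 TPM, and strand use in counting is not given, so its reads may be shared. Pdzk1ip1 rose by 1.26 (limma adjusted p = 0.0213). The sodium-glucose transporter Slc5a1 was at 0.339 to 0.779 TPM in PBS, 0.383 to 1.28 in HEK-EV and 1.88 to 2.36 in MSC-EV. Dcdc2a, a doublecortin-domain protein of the cilium, was at 0.157 to 0.557 TPM in PBS, 0.344 to 0.426 in HEK-EV and 1.05 to 1.46 in MSC-EV. Both are given by level only in the text. Aqp1, a water channel of cholangiocytes and also of sinusoidal endothelium, was at 74.8, 75.7 and 69.6 TPM in PBS and 39.5, 26.4 and 44.8 in MSC-EV and did not pass (-1.0, SE 0.264, limma adjusted p = 0.0597). Like the endothelial markers, it was lower in MSC-EV. Cftr and Sctr, the chloride channel and secretin receptor of cholangiocytes, were at 0.0947 TPM or less in every library and were not tested.

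Genes of the ductular reaction and of the Notch and YAP pathways were mixed. Of the 11 tested, Prom1 and Fgfr2 passed the filter only with the MSC-EV libraries and are given by level only in the text. Prom1, a surface marker of liver progenitor cells, was at 0.386, 0.372 and 0.555 TPM in PBS, 0.554, 0.777 and 1.13 in HEK-EV and 2.57, 3.15 and 2.76 in MSC-EV. Fgfr2, a growth factor receptor of epithelia, was at 0.330 to 0.542 TPM in PBS, 0.444 to 0.731 in HEK-EV and 1.21 to 1.58 in MSC-EV. Of the other 9, 0 rose and 1 fell in the limma fit against PBS, where 1.86% of all genes tested rose and 3.25% fell. Nothing about the role is read from counts this small. Hes1, a Notch target that many cell types express, was the gene that fell. It was at 33.5, 37.9 and 32.7 TPM in PBS, 29.5, 31.8 and 33.0 in HEK-EV and 14.8, 19.1 and 22 in MSC-EV (-0.87 from PBS, SE 0.126, limma adjusted p = 0.0154). Against HEK-EV Hes1 fell as well (-0.74). Spp1, which encodes osteopontin of both cholangiocytes and macrophages, was at 1702, 732 and 981 TPM in PBS and 1970, 2336 and 1754 in MSC-EV and did not pass (0.91, limma adjusted p = 0.0773). Jag1, Notch2, Tnfrsf12a, Hey1, Ccn1, Ccn2 and Lcn2 did not pass in any comparison. Tnfrsf12a overlaps the antisense gene Hcfc1r1, which reached 70.8 TPM, so its reads may be shared.

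The 23 biliary genes under the filter were too low to test, at 1.58 TPM or less in every library. Of these, 21 had a higher mean in MSC-EV than in PBS. That share was not computed over all genes under the filter, and MSC-EV libraries were the deepest, so nothing is read from the 21. All MSC-EV values were above all PBS values in 14. The same held for 8.29% of the 11823 genes under the filter that were above 0 in some library. Foxl1 was at 0 throughout. The 23 include the factors Onecut1, Onecut2, Elf3, Grhl2, Esrp1 and Tfcp2l1. Filtering on level mattered here: 385 of the 13820 genes tested (2.79%) passed only with the MSC-EV libraries, and 3 of the 9 genes of the list and 10 of the further biliary genes were among them.

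**Figure D4:**
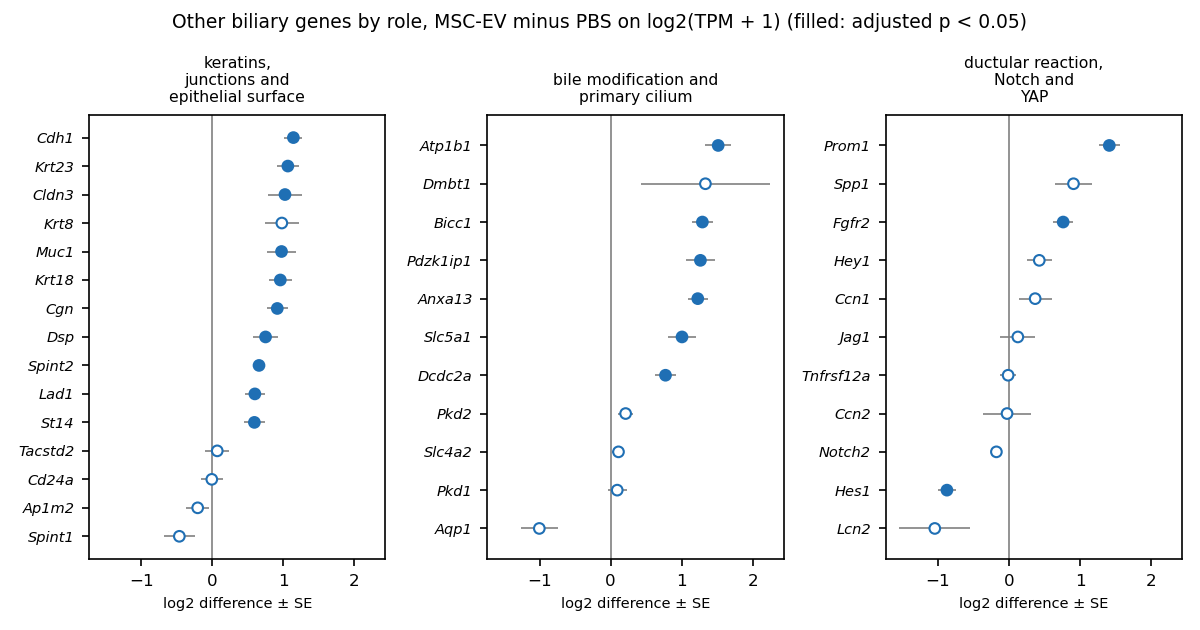
Difference of MSC-EV from PBS in log2(TPM + 1), with its SE (horizontal axes), for 37 of the 39 further biliary genes tested, by role, with filled points for an adjusted p under 0.05. The 19 filled points are all to the right of 0 except Hes1 at -0.87, and 8 of them (Krt23, Cgn, Dsp, Lad1, Dcdc2a, Slc5a1, Prom1 and Fgfr2) passed the filter only with the MSC-EV libraries.

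The genes whose pattern over the 9 libraries was most like that of the list were named by a correlation with its mean standardised level, among 11698 genes outside every list. The 10 highest Pearson correlations ran from 0.964 to 0.992. They belonged, in falling order, to Lurap1l, Pamr1, Eps8l2, Myrf, Dsg2, Fads2, Slc2a2, Habp2, Sorbs2 and Palmd. Lurap1l, the closest, was at 0.857, 0.891 and 0.998 TPM in PBS, 1.31, 1.56 and 1.76 in HEK-EV and 3.91, 5.44 and 4.32 in MSC-EV. Dsg2, a desmosomal cadherin, was at 1.48, 1.02 and 1.05, then 1.20, 1.56 and 2.32, then 4.81, 5.52 and 5.59 TPM in the same order. Slc2a2, the glucose transporter of hepatocytes, reached 1.83, 2.28 and 2.49 TPM in MSC-EV from 0.687, 0.487 and 0.463 in PBS. Each shows the steps of the list, with PBS lowest or overlapping HEK-EV and the 3 MSC-EV libraries highest. That follows from the ranking, which chose genes by their likeness to the list. Pamr1, Eps8l2, Myrf, Slc2a2, Habp2 and Palmd passed the filter only with the MSC-EV libraries, so the filter itself asks for a difference in them. These correlations share 9 libraries, their depth and the group structure, and are a description only.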

How the data were processed

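RNA of CD11b+ liver cells was extracted with Trizol and made into TruSeq Stranded mRNA libraries, per the labels. The submitters' processing notes name HISAT2 2.1.0, StringTie and mm10. Strand use in counting is not given in the sources used here. TPM and FPKM per gene were deposited by the authors, 1 table per library. Coverage, the mean read signal over a gene, is also deposited and was used only to describe depth. Symbols came from RefSeq's GRCm38.p6 gene table through the gene IDs (99.79% of 45777 IDs; all 163 listed symbols matched), and rows of 1 ID were summed. Start and end were those of that assembly for 96.36% of matched IDs.

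Genes reaching 1 TPM in 3 or more of the 9 libraries were tested on log2(TPM + 1) with limma 3.58.1 in R 4.3.3 (trend, all 9 libraries in 1 fit, no covariate, two-sided, Benjamini-Hochberg over 13820 genes). A fold on that scale understates the change of low genes. The procedure was also tested on simulated data. The 9 genes, the lists and the tests were chosen with earlier results of these data known. Named were the 9 genes. Of the further biliary genes, up to 5 per role and comparison of smallest p past the threshold were named, and per role the most abundant that did not pass. The transcription factors that passed are counted but not reported here singly. The 10 most alike genes were those of highest correlation with at least 1 TPM on average, without predicted genes and Riken clones. Krt8, Cftr, Sctr and the other genes given as single genes were chosen after their values were seen. Alternatives were another pseudocount (0.1), no filter, a minimum of 5 TPM, FPKM, median-of-ratios scaling, a replicate block, only the 6 libraries compared, and fits without single libraries or without those with acinar transcripts.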

Additional observations from a re-analysis of the deposited data

How the results depend on the processing

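Over 18 alternatives all 9 genes stayed higher in MSC-EV than in PBS and HEK-EV. Of 155 differences per comparison (a minimum of 5 TPM keeps only Tm4sf4 and Clu), 17 against PBS and 15 against HEK-EV moved by at least 1 SD. In HEK-EV against PBS 3 changed sign (lowest -0.04). The median of the 9 against PBS, against HEK-EV and for HEK-EV against PBS was 1.53, 1.16 and 0.37 with a pseudocount of 0.1, and 1.54, 1.16 and 0.38 with a minimum of 5 TPM. On FPKM these medians were 0.56, 0.50 and 0.075. For HEK-EV against PBS the median was 0.15 in the main fit. It was 0.23 without PBS replicate 1 and 0.29 without the 4 libraries with acinar transcripts.

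Counts of genes depended on settings, and the cause was not tested where libraries were not left out. Main counts were 706 (against PBS), 817 (against HEK-EV) and 0 (HEK-EV against PBS). They were 361, 387 and 4 without a filter. With the replicate block 404 and 448 passed. Only the 6 libraries compared gave 77 against PBS. FPKM gave 459 and median-of-ratios 501 against HEK-EV. Leaving out 1 library gave 5 to 1861 (5, 7, 25 and 59 without PBS replicates 2 and 3 and MSC-EV replicates 1 and 2), 0 to 1369 (at most 31 without any HEK-EV replicate or MSC-EV replicate 1 or 2) and 0 to 2. Without the 4 or the 2 libraries richest in acinar transcripts 0 passed in limma, with 1615 and 2755 against PBS and 1567 and 2914 against HEK-EV at an unadjusted p under 0.05. A group left with 1 library is assumed to vary like the others.

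Of the further biliary genes 21 and 18 passed in the main fits against PBS and HEK-EV. The counts were 6 and 6 with a minimum of 5 TPM, 13 and 7 with the replicate block, 11 against HEK-EV with a pseudocount of 0.1, 9 against PBS with only 6 libraries, and 0 without the 4 or the 2 acinar libraries (15 to 25 at an unadjusted p under 0.05). Leaving out 1 library gave 0 to 26 and 0 to 20. All 21 and all 18 kept their direction in every alternative that tested them. Same-numbered libraries did not deviate together (correlations -0.499 to 0.058), so the numbers do not pair them. The share of calls that were higher against PBS was 36.4% in the main fit, 63.1% for FPKM and 45.6% after median-of-ratios scaling, and against HEK-EV 25.6%, 59.5% and 43.9%.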
